A study of Mus musculus with 6 samples.

Results

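REST, the polypyrimidine tract binding proteins PTBP1 and PTBP2 and 7 RNA-binding proteins of neurons were followed across a conversion of mouse fibroblasts toward parvalbumin neurons. The 10 genes were Rest, Ptbp1, Ptbp2, Rbfox1, Rbfox2, Rbfox3, Elavl2, Elavl3, Elavl4 and Nova1, chosen by symbol out of 22180 genes on the array. Each is read by exactly 1 probe set that names that gene alone, so no second probe set checks it. Biotin-labelled cRNA made from total RNA was read on Affymetrix arrays, and each group is 1 array.

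The groups were induced parvalbumin (iPV) cells sorted for GFP at day 14 after infection, a sample labelled as endogenous parvalbumin (PV) neurons (called the PV-labelled array), mouse embryonic fibroblasts (MEF), and unsorted iPV cells at days 3, 7 and 14. All 6 samples came from C57BL/6 mice carrying a PV-GFP transgene, and the labels give embryos of 13.5 days for all of them. The labels also describe fibroblast culture and adenovirus induction in identical words for every sample, MEF and PV-labelled alike. The sources used here do not give the genes the virus delivers, the promoter behind the GFP or whether animals were pooled. With 1 array per group there is no replicate spread, so differences are described without a test.

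REST is a zinc finger repressor that keeps neuronal genes off in non-neuronal cells by recruiting CoREST and SIN3 corepressors with histone deacetylases. PTBP1 skips neuronal exons in fibroblasts and progenitors, including an exon of its own paralog Ptbp2, and in developing neurons PTBP2 replaces it. The neuronal microRNA miR-124 acts against Ptbp1 and REST-pathway mRNAs, and miR-9 against Rest, which closes a loop that has been used to turn fibroblasts into neurons. RBFOX, ELAVL (Hu) and NOVA proteins act later, binding neuronal pre-mRNAs and mRNAs and setting their splicing and stability. The array reads whole genes, so it does not separate splice forms such as the neuronal short form of Rest or the skipped form of Ptbp2.

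Elavl3 and Rbfox1 were the members that passed 2-fold in any comparison, so their promoters are shown, as 300 bases mostly upstream of a start site, from RefSeq on GRCm38.p6. Capitals mark E-boxes, the letters CANNTG that proneural factors of the basic helix-loop-helix class bind. RefSeq gives Rbfox1 more than 1 start, and both of its entries are printed because the probe set does not say which is used. The Elavl3 entry lies at chr9:22051974-22052273 on the minus strand, and the Rbfox1 entries at chr16:5884543-5884842 and chr16:7069585-7069884 on the plus strand.
Elavl3: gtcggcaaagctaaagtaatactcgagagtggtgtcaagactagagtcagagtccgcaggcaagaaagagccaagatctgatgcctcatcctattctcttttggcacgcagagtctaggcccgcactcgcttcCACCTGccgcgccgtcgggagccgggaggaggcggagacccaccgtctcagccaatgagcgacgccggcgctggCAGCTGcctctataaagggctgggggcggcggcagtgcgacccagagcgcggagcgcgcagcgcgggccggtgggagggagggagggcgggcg
Rbfox1 at the first start: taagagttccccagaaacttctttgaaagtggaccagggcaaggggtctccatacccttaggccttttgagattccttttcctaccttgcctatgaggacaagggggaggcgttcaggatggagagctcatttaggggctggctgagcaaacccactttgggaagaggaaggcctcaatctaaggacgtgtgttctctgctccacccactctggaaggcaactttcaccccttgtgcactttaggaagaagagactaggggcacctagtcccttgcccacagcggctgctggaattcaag
Rbfox1 at the second start: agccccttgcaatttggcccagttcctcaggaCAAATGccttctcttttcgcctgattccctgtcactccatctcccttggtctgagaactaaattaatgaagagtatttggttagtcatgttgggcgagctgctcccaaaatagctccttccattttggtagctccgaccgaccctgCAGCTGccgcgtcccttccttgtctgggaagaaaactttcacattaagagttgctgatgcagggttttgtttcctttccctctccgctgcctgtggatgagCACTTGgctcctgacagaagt
The Elavl3 entry holds 2 E-boxes, the first Rbfox1 entry 0 and the second 3. The E-box form CAGCTG occurs once each in the Elavl3 and the second Rbfox1 entry. Over 32851 RefSeq promoters of the same length, 72.3% hold CANNTG and 16.3% hold CAGCTG, which is itself one form of CANNTG. The patterns CANNTG and CAGCTG each read the same on both strands.

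Promoter entries were matched for 8 members, 17 entries in all, several of which overlap. CANNTG was in 14 of the 17 and CAGCTG in 9, which belong to 6 members. Elements of the RE1 site that REST binds were searched on both strands as CAGCACC, as GGACAGC, and as both joined in that order across 2 bases. In the member entries CAGCACC was in 0, GGACAGC in 1, which belongs to Ptbp2, and the joined form in 0. Over all promoters the shares were 7.14%, 6.56% and 0.0213% in the same order. These are letters in a window and no evidence of a bound factor, and REST also binds far from start sites.

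The labels were set against cell type markers. Of the 7 listed parvalbumin neuron markers found on the array, 2 in sorted iPV cells, 4 on the PV-labelled array and 3 in MEF lay above the floor. This floor, 5.01 on the log2 scale, is the median over probe sets other than controls, and lower values were set to it before differences were taken. Gad1 on the PV-labelled array (5.13) and in MEF (5.19), and Slc32a1 on the PV-labelled array (5.05), were barely above it. The counts therefore differ through values near the floor. Pvalb, the gene for parvalbumin, had 6.29 in sorted cells, 5.48 on the PV-labelled array, 5.23 in MEF, 5.76 at day 3, 6.15 at day 7 and 5.80 at day 14. As deposited it was highest in sorted cells, 2.09-fold over MEF, a call lost after housekeeping centring, and lower on the PV-labelled array than on every iPV array. Gad2, Kcnc1 and Erbb4 were under the floor on all 6 arrays. All 10 fibroblast markers were above the floor on all 6 arrays, with a log2 summed level of 14.9 in sorted cells, 15.2 on the PV-labelled array and 15.1 in MEF. Of 10 neuron markers, 9 were above the floor in sorted cells, 7 on the PV-labelled array and 6 in MEF, and Dcx was under it on all 6. The summed neuron level was 10.3 at day 14, the lowest, and highest in sorted cells. Ncam1, the brightest of these markers, weighs most in that sum, with 9.06 at day 14 and 9.99 in MEF. The sum thus does not stand for the whole list, of which 9 were above the floor at day 14. Macrophage markers had a log2 summed level of 8.52 in sorted cells, 11.1 on the PV-labelled array, and 10.7 in MEF, 8.45 at day 3, 9.37 at day 7 and 9.36 at day 14. Their part in the results below was not tested. In such bulk samples, fewer cells of a type and less RNA per cell cannot be told apart.

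As deposited, members passed 2-fold only in comparisons that include sorted cells. Of the 10 genes, 7 were above the floor on all 6 arrays and 9 on at least 1. Elavl4 was under the floor on all 6, Elavl2 was above it in sorted cells alone, and Rbfox1 was above it in sorted cells, on the PV-labelled array and at day 3. In sorted cells against MEF, Rbfox1 and Elavl3 were at least 2-fold higher, 2 of the 9 measured members, where 5.69% of all 14295 measured genes were that much higher. No member was that much lower there, against 2.55% of all genes. Against day 14, 1 member was higher in sorted cells, Rbfox1, and 0 lower, with 1.96% of all genes higher and 0.944% lower. Against the PV-labelled array, Rbfox1 was again the 1 member higher in sorted cells and 0 were lower, with 2.11% of all genes higher and 1.77% lower. These comparisons share the sorted array, so they are not independent of each other.

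**Figure D1:**
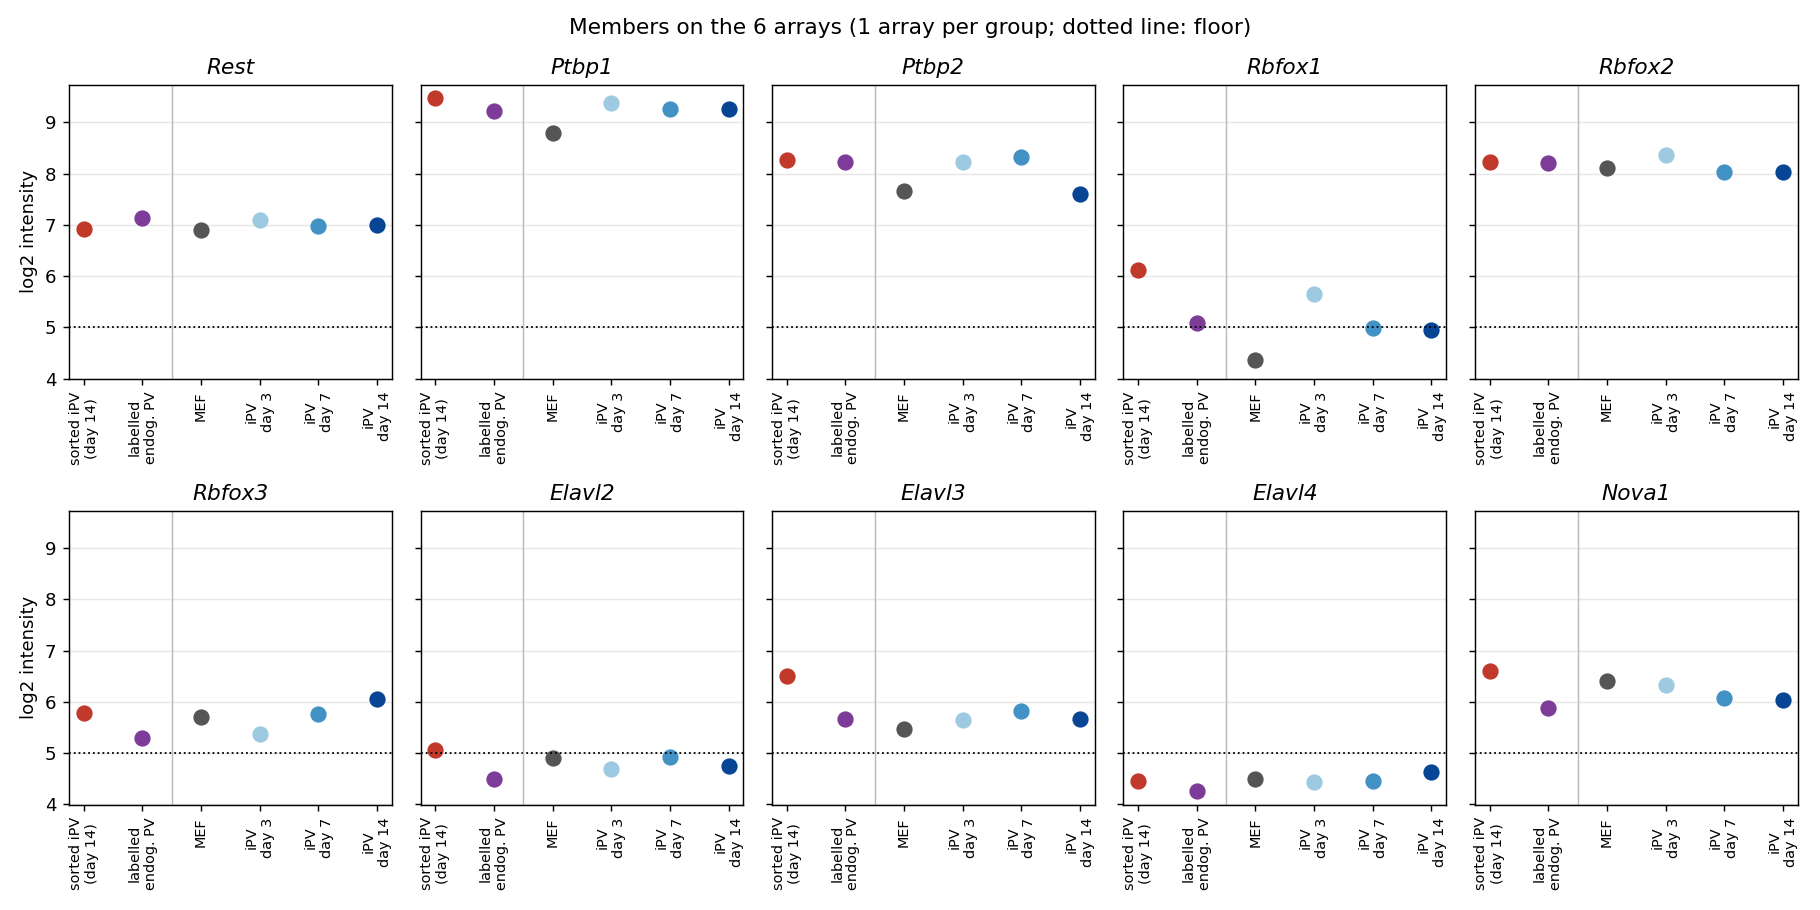
Log2 intensity of each of the 10 members (y axis) on the 6 arrays (x axis), 1 point per array, with the floor of 5.01 as a dotted line. Rbfox1 and Elavl3 have their highest points in sorted iPV cells, at 6.11 and 6.50, while Rest stays between 6.90 and 7.13 and Elavl4 lies under the floor on all 6 arrays.

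In the other 6 comparisons 0 members passed 2-fold in either direction. The shares of all genes that were higher and lower were 2.22% and 2.54% at day 3 against MEF, 2.63% and 1.31% at day 7 against MEF, and 3.26% and 1.95% at day 14 against MEF. They were 3.31% and 1.5% on the PV-labelled array against MEF, 2.01% and 0.818% at day 7 against day 3, and 0.937% and 1.28% at day 14 against day 7. A count of 0 among 9 measured members is close to such shares. The size of a difference can be set against a technical spread, taken from genes with more than 1 probe set. Over such genes, the standard deviation of the gap between the log2 differences of the 2 brightest probe sets was divided by the square root of 2. The spread ran from 0.27 at day 14 against day 7 to 0.50 in sorted cells against MEF. Only genes with both probe sets above the floor on both arrays entered it, so it does not measure noise near the floor. It holds no variation between cultures or animals.

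**Figure D2:**
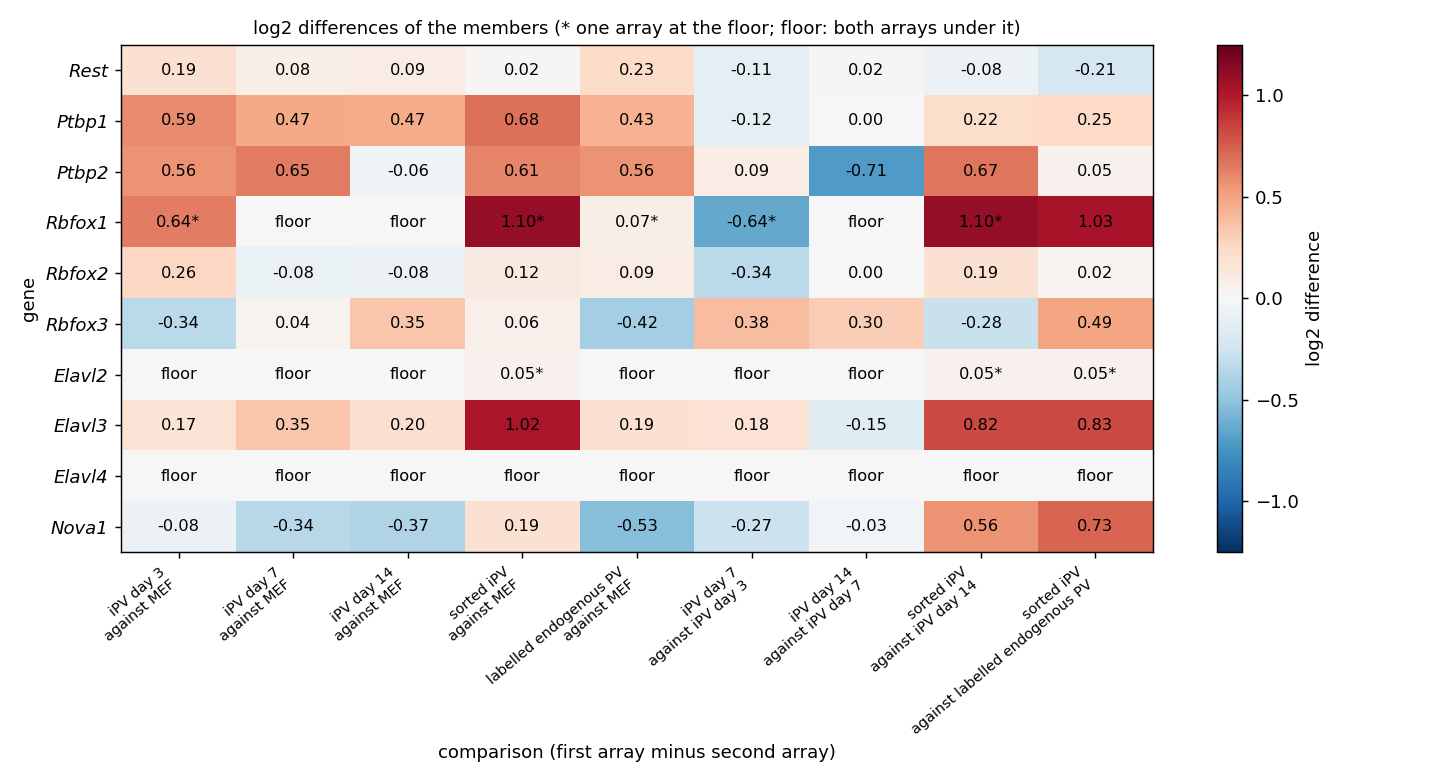
Log2 differences of the 10 members (rows) in 9 comparisons (columns), first-named array minus second, with colour from blue (lower) to red (higher). The largest values are those of Rbfox1 and Elavl3 in sorted cells; a star marks a bound where 1 array is at the floor, and "floor" a pair with both arrays under it.

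Rest itself moved little. It had 6.92 in sorted iPV cells, 7.13 on the PV-labelled array, 6.90 in MEF, 7.09 at day 3, 6.98 at day 7 and 6.99 at day 14. No pair of these differed by more than 1 technical spread in the 9 comparisons, and the sorted cells differed from MEF by 0.02. Even the direction depends on scaling. After centring each array on housekeeping genes, Rest was lower than MEF on all 5 other arrays, by -0.29 in sorted cells, -0.06 on the PV-labelled array, -0.10 at day 3, -0.38 at day 7 and -0.40 at day 14. Quantile normalization turned it in sorted cells against MEF as well, to -0.15. Housekeeping centring shifted the all-gene median as well, to -0.18 in sorted cells, -0.20 on the PV-labelled array, -0.23 at day 3, -0.37 at day 7 and -0.34 at day 14, each against MEF.

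Of 19 listed corepressors and regulators of REST, 16 were found and all of those were above the floor on at least 1 array. Sorted cells had 1 of them at least 2-fold above MEF and 0 below, near the 5.69% and 2.55% of all genes. The list's median log2 difference was 0.35 there, against 0.05 over all genes, and 0.04 after housekeeping centring. The 1 higher gene was Rcor2, a CoREST paralog that pairs with the histone demethylase KDM1A. Rcor2 had 6.61 in sorted cells, 5.55 on the PV-labelled array, 5.44 in MEF, 5.39 at day 3, 5.80 at day 7 and 6.13 at day 14. It was thus highest in sorted cells, 2.26-fold over MEF and 2.09-fold over the PV-labelled array, and it lost the 2-fold call against MEF after housekeeping centring. Ctdsp1, a small phosphatase that acts with REST, had 7.80 in sorted cells, 7.46 on the PV-labelled array, 6.80 in MEF, 7.29 at day 3, 8.11 at day 7 and 7.91 at day 14. It passed 2-fold over MEF at day 7 (1.30) and day 14 (1.11) and lay just under it in sorted cells, and both calls were lost after housekeeping centring. Its relative Ctdspl was lower than in MEF on every other array, under both scalings too, and passed 2-fold at day 3 (-1.20). Smarca4, the ATPase of BAF remodelling complexes, and Hdac1, a histone deacetylase, differed by 0.91 and 0.74 in sorted cells against MEF. The PV-labelled array had 0 of 16 past 2-fold against MEF, where 3.31% of all genes were higher and 1.5% lower.

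Some genes that REST is known to repress differed more than Rest in sorted cells. The list was chosen with earlier results of these data known, so its counts describe it and test nothing. Of 38 listed targets 33 were found and 24 were above the floor on at least 1 array. Snap25, Chga, Chgb, Nefl and Nefm were under it in MEF and count as measured through other arrays. Compared with MEF, sorted cells had 10 of the 24 at least 2-fold higher and 0 lower, where 5.69% of all genes were higher, and the list median was 0.81 against 0.05 over all genes. Against the PV-labelled array 9 were higher, where 2.11% of all genes were, and 0 lower (median 0.62). Against day 14 4 were higher, where 1.96% of all genes were, and 0 lower (median 0.33). Some of these genes are neuroendocrine markers too, and that list's log2 summed level was 8.53 in sorted cells, 7.31 on the PV-labelled array, 6.90 in MEF, 7.74 at day 3, 7.88 at day 7 and 7.61 at day 14. Scg3 and Pcsk1 of that list were under the floor on all 6 arrays, and its part was not tested. The count of 10 was 9 under quantile normalization, 7 after housekeeping centring and 2 with a floor at percentile 75, and most of these genes lie close to the floor.

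Snap25, a SNARE protein of vesicle release, showed the widest difference of the list. It had 8.05 in sorted cells, 6.53 on the PV-labelled array, 4.44 in MEF, 6.00 at day 3, 6.44 at day 7 and 6.90 at day 14. Every other array lay above MEF, which was under the floor, and sorted cells were at least 8.24-fold higher than MEF and 2.23-fold higher than day 14. Chga, the granule protein chromogranin A, had 6.98 in sorted cells, 5.54 on the PV-labelled array, 4.88 in MEF, 5.88 at day 3, 5.78 at day 7 and 5.66 at day 14. It was at least 3.90-fold higher in sorted cells than in MEF and 1.32 log2 units higher than at day 14, with the 3 unsorted days close together.

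The neurofilament genes Nefl, Nefm and Nefh, axonal intermediate filaments, moved alike in sorted cells. They were at least 2.64-fold, at least 2.57-fold and 2.57-fold higher there than in MEF. On the PV-labelled array, Nefl (4.50) and Nefm (4.97) were under the floor, and Nefh was level with MEF at 5.86. Rundc3a and Chgb, which encodes chromogranin B, were 2.33-fold and at least 2.53-fold higher in sorted cells than in MEF, and Syt1, the calcium sensor of vesicle release, just passed 2-fold. Scn3b, a sodium channel subunit, behaved otherwise: it had 7.64 in sorted cells, 7.29 on the PV-labelled array, 5.77 in MEF, 7.33 at day 3, 7.43 at day 7 and 7.85 at day 14. It was thus past 2-fold over MEF on all 5 other arrays and no higher in sorted than in unsorted cells at day 14 (-0.21).

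Other targets did not follow. Stmn2, a growth cone protein, differed by -0.18 in sorted cells against MEF, and Bdnf, a neurotrophin, by -0.16. Scn2a, a sodium channel of axons, was above the floor in MEF alone, at 5.78. Targets that stayed under the floor on all 6 arrays were Syt4, Scg3, Gria2, Celsr3, Mapk8ip2, Chrnb2, Glra1, Actl6b and Calb1, so 9 of the 33 gave no difference. Before sorting, 2 of 24 passed 2-fold over MEF at day 14, Snap25 and Scn3b, where 3.26% of all genes did. The list median of 0.38 there turned to -0.12 after housekeeping centring. The PV-labelled array had the same 2 genes past 2-fold over MEF, where 3.31% of all genes were, and a list median of 0.00.

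**Figure D3:**
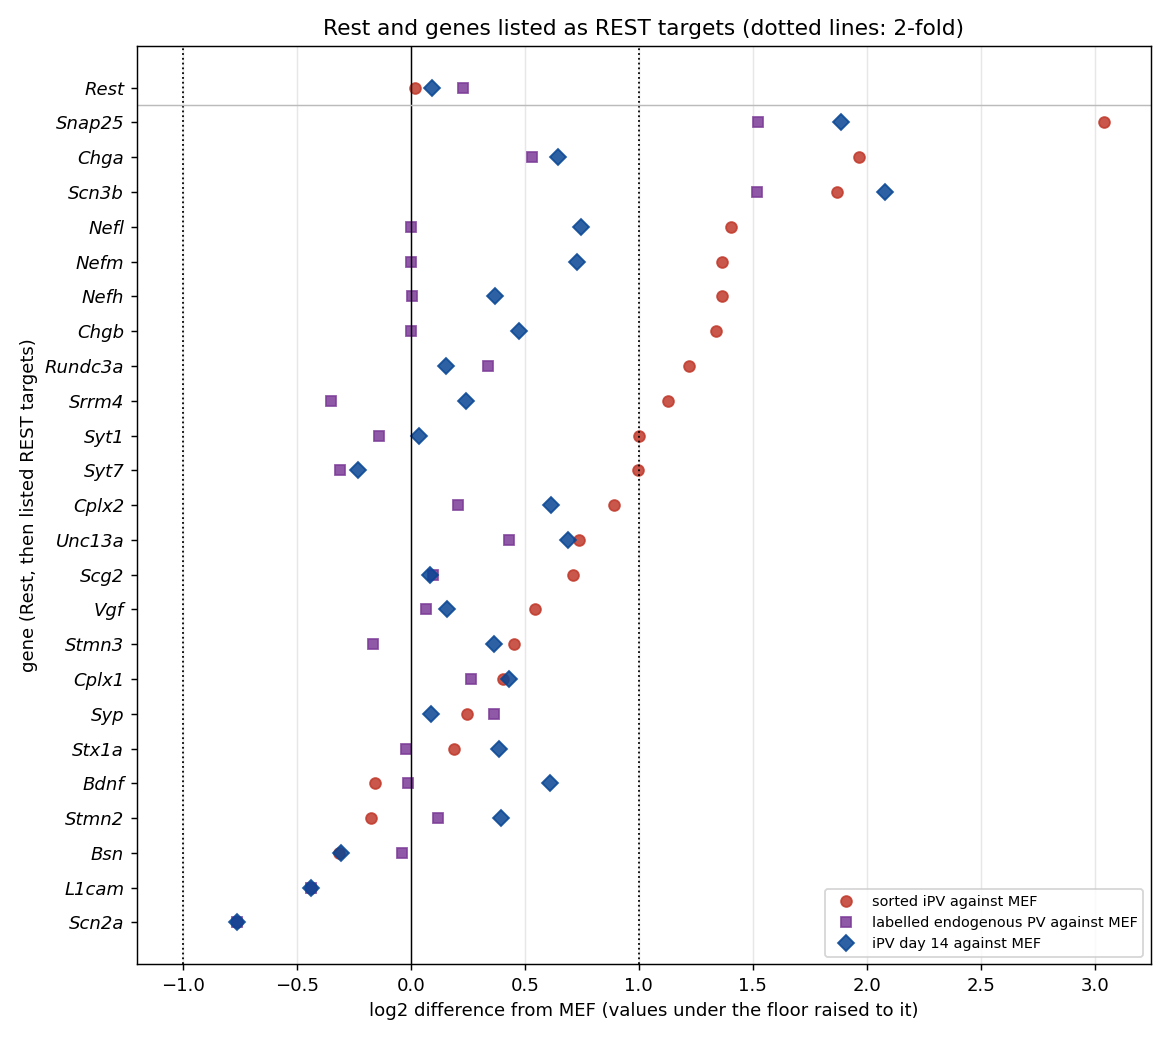
Log2 difference from MEF (x axis) of Rest and its 24 measured listed targets (y axis) for sorted iPV cells, the PV-labelled array and iPV day 14, with dotted lines at 2-fold. Rest lies between 0.02 and 0.23 as deposited, but negative after housekeeping centring, while 10 targets lie past 2-fold in sorted cells, led by Snap25.

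MicroRNA genes of the loop were mostly at or under the floor. Of 14 found, 7 were above it on at least 1 array, and the array protocol labels cRNA, so whether a probe set reads a mature microRNA is not given in the sources used here. Sorted cells had 0 of the 7 past 2-fold against MEF (5.69% of all genes higher, 2.55% lower), with a list median of -0.08. Mir9-3, 1 of 3 loci of miR-9, had 4.93 in sorted cells, 5.44 on the PV-labelled array, 5.08 in MEF, 5.40 at day 3, 6.08 at day 7 and 6.10 at day 14. It was 2.01-fold over MEF at day 7 and 2.04-fold at day 14, and at least 2.13-fold lower in sorted than in unsorted cells at day 14. The calls over MEF sit at the threshold, and all 3 calls were lost after housekeeping centring. The mature strands are given from RefSeq on GRCm38.p6 because the 3 loci make the same 2 strands, which are known to act on Rest and on CoREST. Capitals mark the seed, bases 2 to 8.
miR-9-5p: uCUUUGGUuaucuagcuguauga
miR-9-3p: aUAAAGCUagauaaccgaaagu
The strands come from chr7:79505279-79505301 and chr7:79505318-79505339 on the plus strand for Mir9-3, and their seeds differ. Mir9-1 lay between 5.28 and 5.52 on the 6 arrays and Mir9-2, far under the floor, between 1.36 and 1.95. Mir218-1 was 2.13-fold lower at day 14 than in MEF.

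Ptbp1, the splicing repressor of non-neuronal cells, was not lower than in MEF on any array as deposited, and at day 14 it was -0.02 after housekeeping centring. It had 9.47 in sorted iPV cells, 9.22 on the PV-labelled array, 8.79 in MEF, 9.38 at day 3, 9.26 at day 7 and 9.25 at day 14. MEF had the lowest value, and sorted cells exceeded it by 0.68 (1.61-fold), the PV-labelled array by 0.43, day 3 by 0.59, day 7 by 0.47 and day 14 by 0.47. After housekeeping centring these differences were 0.38, 0.15, 0.31, 0.01 and -0.02 in the same order, so at days 7 and 14 Ptbp1 was level with MEF on that scale. The other 5 arrays lay within 0.25 of each other, and none of those differences exceeded 1 technical spread in the comparisons made. Every value of Ptbp1 against MEF was between 1 and 2 technical spreads.

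Ptbp2, the paralog that follows PTBP1 in developing neurons, had 8.27 in sorted cells, 8.22 on the PV-labelled array, 7.66 in MEF, 8.22 at day 3, 8.32 at day 7 and 7.61 at day 14. As deposited, MEF and unsorted day 14 were low, and the other 4 arrays were higher and within 0.09 of each other. Day 14 was lower than day 7 by -0.71, which is 2.58 technical spreads and the widest such gap among members between consecutive times. Sorted cells, labelled with the same day, were 0.67 above unsorted day 14 cells (1.59-fold). Against MEF the differences were 0.61 in sorted cells, 0.56 on the PV-labelled array, 0.56 at day 3, 0.65 at day 7 and -0.06 at day 14. Housekeeping centring gave 0.30 in sorted cells, 0.28 on the PV-labelled array, 0.28 at day 3, 0.19 at day 7 and -0.55 at day 14, so on that scale unsorted day 14 alone was well below MEF. The step between days 7 and 14 was -0.80 under quantile normalization and -0.74 after housekeeping centring. None of these reached 2-fold, and the third paralog, Ptbp3, differed from MEF by -0.05 in sorted cells.

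Dividing-cell markers, which Ptbp1 is known to accompany, had a log2 summed level of 9.20 in sorted cells, 9.44 on the PV-labelled array, 10.5 in MEF, 8.88 at day 3, 10.5 at day 7 and 8.95 at day 14. They were thus high in MEF and at day 7. As deposited, Ptbp1 was lowest in MEF and alike at days 3, 7 and 14. After housekeeping centring it was level with MEF at days 7 and 14. The part of dividing cells in the PTBP values was not tested.

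The 3 RBFOX genes, which encode splicing factors with a shared RNA-binding domain, parted from each other. Rbfox1, found in neurons, heart and skeletal muscle, had 6.11 in sorted cells, 5.08 on the PV-labelled array, 4.37 in MEF, 5.66 at day 3, 4.99 at day 7 and 4.96 at day 14. It was clearly above the floor in sorted cells and at day 3, just above it on the PV-labelled array and under it on the rest. Sorted cells were at least 2.15-fold higher than MEF and at least 2.15-fold higher than unsorted day 14 cells, where both bounds are taken from the floor. They were 2.05-fold higher than the PV-labelled array, a difference of 3.19 technical spreads. The value on that array was just above the floor, where the spread does not measure noise. At day 3 Rbfox1 exceeded MEF by at least 0.64. The call against MEF held under quantile normalization and housekeeping centring, at 1.04 and 1.10, and that against the PV-labelled array was 0.95 under quantile normalization.

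Among the muscle markers, Des moved with Rbfox1 in part. Des, the intermediate filament of muscle, had 8.42 in sorted cells, 6.52 on the PV-labelled array, 5.25 in MEF, 7.86 at day 3, 7.85 at day 7 and 7.09 at day 14. Tnnt2, cardiac troponin T, had 8.03 in sorted cells, 7.96 on the PV-labelled array, 6.35 in MEF, 7.35 at day 3, 7.97 at day 7 and 7.63 at day 14. Des was highest in sorted cells, as Rbfox1 was, but it was also high at day 7, where Rbfox1 was under the floor. Tnnt2 was about as high on the PV-labelled array and at day 7 as in sorted cells. Myf5 was above the floor in MEF and under it in sorted cells, and Actc1 was the reverse. Of the 11 listed muscle markers 5 were above the floor in sorted cells, 4 on the PV-labelled array and 5 in MEF, and Myh3, Myh6, Myh7 and Ttn were under it on all 6. Their log2 summed level was 9.75 in sorted cells, 9.15 on the PV-labelled array, 8.54 in MEF, 9.33 at day 3, 9.59 at day 7 and 9.28 at day 14. The part of muscle genes in the Rbfox1 values was not tested.

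Rbfox2, the widely expressed member, lay between 8.03 at day 7 and 8.37 at day 3, with 8.22 in sorted cells, 8.20 on the PV-labelled array and 8.11 in MEF. It was the flattest RBFOX gene. Rbfox3, which encodes the neuronal nuclear antigen NeuN, had 5.78 in sorted cells, 5.29 on the PV-labelled array, 5.71 in MEF, 5.37 at day 3, 5.76 at day 7 and 6.06 at day 14. Its highest value was in unsorted day 14 cells and its lowest on the PV-labelled array, and sorted cells differed from MEF by 0.06. Every Rbfox3 difference in the 9 comparisons was under 2-fold, the widest being 0.49 between sorted cells and the PV-labelled array.

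Among the ELAVL genes, Elavl3 was the 1 to pass 2-fold. Elavl3, or HuC, which binds and stabilises neuronal mRNAs, had 6.50 in sorted cells, 5.67 on the PV-labelled array, 5.48 in MEF, 5.64 at day 3, 5.82 at day 7 and 5.68 at day 14. The sorted array stood above the other 5, which lay within 0.35 of each other. Sorted cells were 2.03-fold higher than MEF (1.02, or 2.02 technical spreads), 1.77-fold higher than unsorted day 14 cells and 1.77-fold higher than the PV-labelled array. The call against MEF sits at the threshold: the difference was 0.95 under quantile normalization and 0.71 after housekeeping centring, while that against day 14 just passed 2-fold after the centring. On the other 4 arrays Elavl3 exceeded MEF by 0.17 to 0.35, and each of these turned negative after housekeeping centring.

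Elavl2, or HuB, had 5.06 in sorted cells, 4.49 on the PV-labelled array, 4.90 in MEF, 4.70 at day 3, 4.92 at day 7 and 4.76 at day 14, so it exceeded the floor by 0.05 at most. Elavl4, or HuD, lay between 4.26 on the PV-labelled array and 4.64 at day 14, and no difference is given for it. The widely expressed relative Elavl1, or HuR, was well above the floor on all arrays and differed from MEF by 0.77 in sorted cells and 0.48 on the PV-labelled array.

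Part of the neuron marker list was higher in the same array as Elavl3. Tubb3, a neuronal tubulin, had 7.16 in sorted cells and lay between 5.69 and 6.17 elsewhere, so its sorted array also stood alone. Of 9 measured neuron markers, 5 were at least 2-fold higher in sorted cells than in MEF and 0 lower, namely Tubb3, Snap25, Syt1, Nefl and Nefm, where 5.69% of all genes were higher. The other 4 were Gap43, a growth cone protein, which differed by -0.98, just short of 2-fold lower, Stmn2 by -0.18, Map2 by -0.01 and Ncam1 by 0.00. Snap25, Syt1, Nefl and Nefm were already counted among the higher REST targets. Of the higher neuron markers, Tubb3 alone adds to that count. Under quantile normalization or housekeeping centring, 4 markers were higher and 1 lower. Dcx, a marker of young neurons, was under the floor there. The 10 fibroblast markers had a median of -0.25 in sorted cells against MEF, with 0 higher and 2 lower, Vim and Pdgfra. Over all genes 2.55% were that much lower there. The part of either list in the Elavl3 values was not tested.

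**Figure D4:**
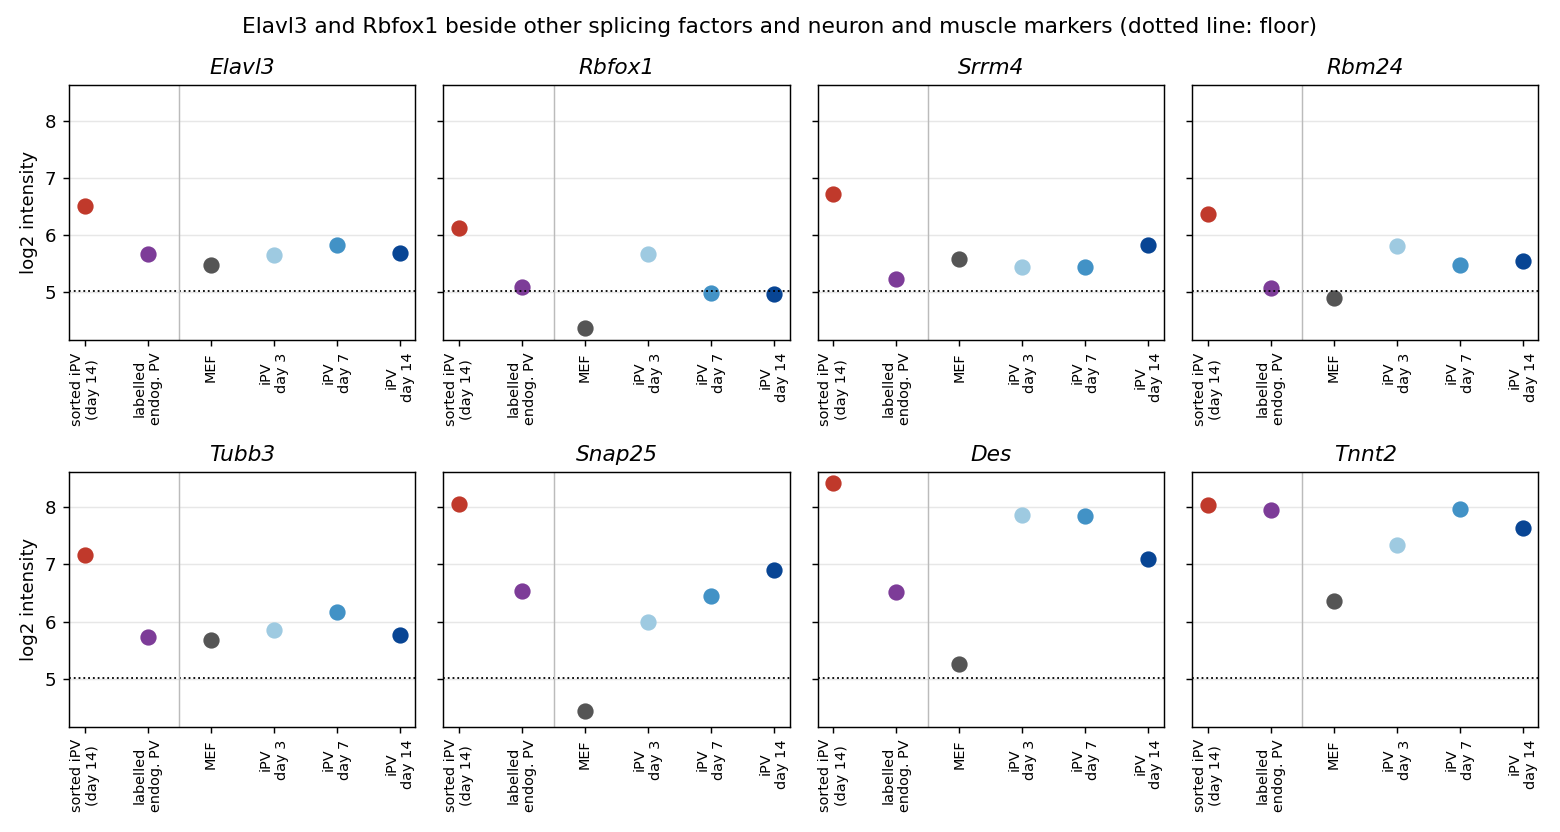
Log2 intensity (y axis) on the 6 arrays (x axis) of Elavl3 and Rbfox1, the splicing factors Srrm4 and Rbm24, the neuron markers Tubb3 and Snap25 and the muscle genes Des and Tnnt2, with the floor dotted. All but Tnnt2 stand higher in sorted iPV cells than on every other array by a visible step; Des and Tnnt2 are already high at days 3 and 7.

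Nova1, a splicing factor of neurons, had 6.60 in sorted cells, 5.87 on the PV-labelled array, 6.41 in MEF, 6.33 at day 3, 6.07 at day 7 and 6.04 at day 14. It was highest in sorted cells and in MEF and lowest on the PV-labelled array. Sorted cells exceeded that array by 0.73 (1.65-fold, 2.24 technical spreads) and unsorted day 14 cells by 0.56. They exceeded MEF by 0.19, which turned to -0.12 after housekeeping centring. The PV-labelled array was lower than MEF by -0.53, or 1.27 technical spreads.

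The 10 other splicing factors listed as enriched in neurons had a list median of 0.01 in sorted cells against MEF. Celf6 and Khdrbs2 were under the floor on both arrays and enter that median as 0. Mbnl2 was bright in both, with 9.96 in sorted cells and 10.34 in MEF. Of the 10, 1 was at least 2-fold higher and 0 lower, beside 5.69% and 2.55% of all genes. That 1 was Srrm4, the activator of neuronal microexons, which also promotes the short splice form of Rest and is itself a listed REST target. Srrm4 had 6.71 in sorted cells, 5.23 on the PV-labelled array, 5.58 in MEF, 5.44 at day 3, 5.43 at day 7 and 5.83 at day 14. It was 2.19-fold higher in sorted cells than in MEF, a call lost after housekeeping centring, and 2.79-fold higher than on the PV-labelled array. The other 5 arrays lay close together. Celf3, a neuronal CELF protein, differed by 0.85 in sorted cells against MEF. Nova2, the paralog of Nova1, differed by 0.16 there and by 0.64 at day 14.

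Widely expressed splicing regulators and paralogs, a list that also holds the muscle factor Rbm24, gave 30 measured genes. Their median was 0.02 in sorted cells against MEF. Of these, 2 were at least 2-fold higher and 0 lower, close to the 5.69% and 2.55% of all genes. The higher genes were Mbnl3, a muscleblind protein, at 2.60-fold and Rbm24, a splicing factor of muscle, at least 2.54-fold. Under quantile normalization 1 gene of the list was lower, and after housekeeping centring 2. Rbm24 had 6.36 in sorted cells, 5.07 on the PV-labelled array, 4.89 in MEF, 5.80 at day 3, 5.47 at day 7 and 5.54 at day 14. Like Rbfox1, it was highest in sorted cells and next at day 3. The PV-labelled array had 1 of 30 past 2-fold over MEF, Celf2, at 1.16, where 3.31% of all genes were.

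Binders that act on transport, stability and translation gave 22 measured genes. Set against MEF, sorted cells had 1 higher, Zfp36l1, by 1.57, and 1 lower, Zfp36l2, by -1.51, with a median of -0.07. Over all genes 5.69% were higher there and 2.55% lower. The Zfp36l1 call was lost with the mean of its probe sets. Both encode proteins that drive decay of AU-rich mRNAs, the class of sites that ELAVL proteins bind. Zfp36l1 had 11.29 in sorted cells, 10.95 on the PV-labelled array, 9.73 in MEF, 9.91 at day 3, 10.52 at day 7 and 10.71 at day 14, so it was higher at each later day, except that day 3 fell below MEF after housekeeping centring. Zfp36l2 had 7.21 in sorted cells, 8.40 on the PV-labelled array, 8.72 in MEF, 6.96 at day 3, 7.57 at day 7 and 7.77 at day 14, below MEF on all 5 other arrays and under both scalings.

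Of 7 BAF chromatin subunits found, 5 were measured and 0 passed 2-fold in sorted cells, on the PV-labelled array or at days 3, 7 and 14, each against MEF. A count of 0 among 5 is close to the shares of all genes given above. Actl6b, the neuronal subunit and a REST target, was under the floor on all 6 arrays.

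**Figure D5:**
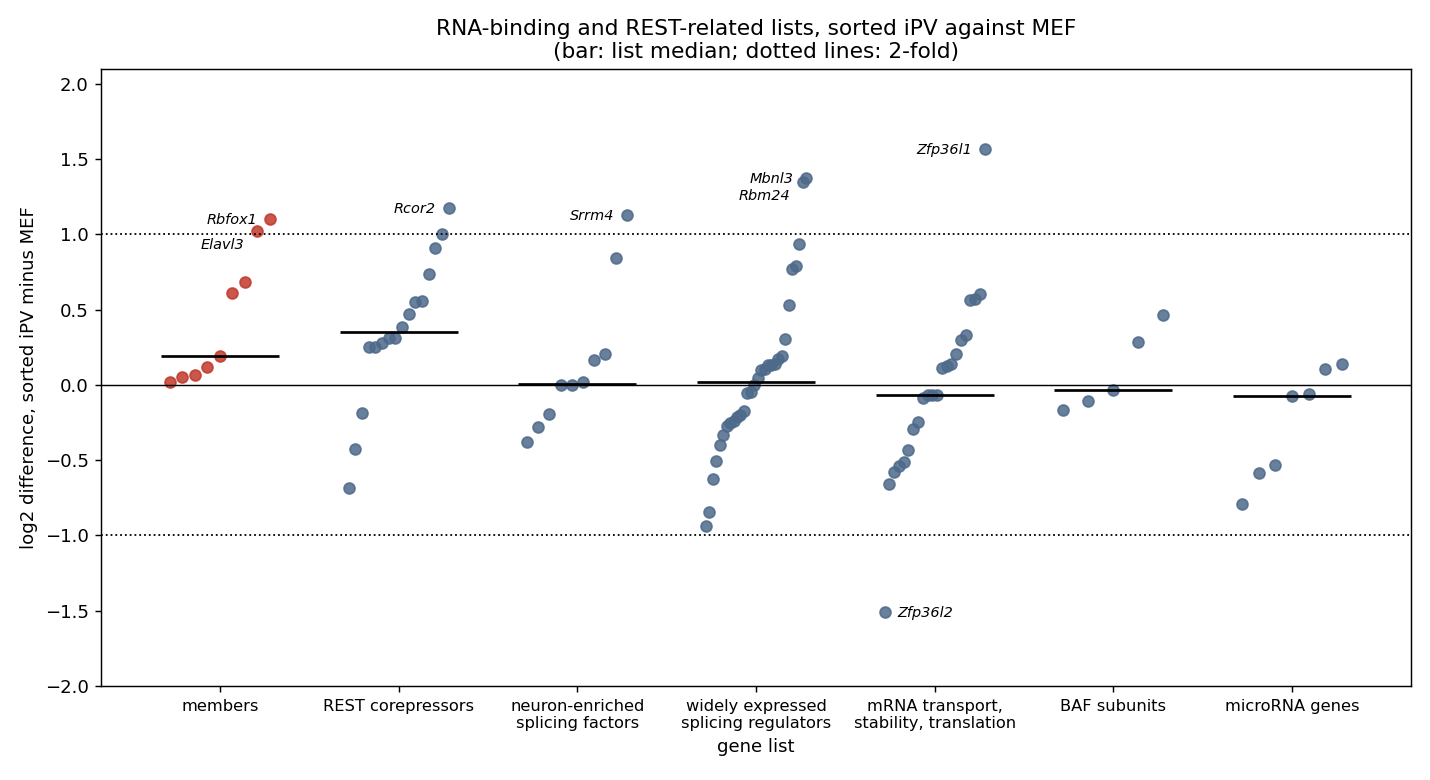
Log2 difference between sorted iPV cells and MEF (y axis) for each measured gene of 7 lists (x axis), with the list median as a bar and 2-fold as dotted lines. Rbfox1 and Elavl3 among members, Rcor2, Srrm4, Mbnl3, Rbm24 and Zfp36l1 lie above 2-fold and Zfp36l2 below it, and the medians lie between -0.08 and 0.35; Elavl3, Rcor2 and Srrm4 fall under 2-fold after housekeeping centring.

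The widest gaps between arrays, over the members, were those of sorted cells to day 14, MEF and the PV-labelled array. Their mean absolute log2 difference was 0.44 between sorted and unsorted day 14 cells, against 0.28 over all genes, and 0.41 between sorted cells and the PV-labelled array, against 0.28 over all genes. To MEF it was 0.43, close to the 0.41 over all genes. Between unsorted day 14 cells and MEF it was 0.18, against 0.35 over all genes. The member median was 0.19 in sorted cells against MEF, 0.22 against day 14 and 0.25 against the PV-labelled array, beside all-gene medians of 0.05, 0.00 and 0.02. The PV-labelled array was nearest to day 7 in the members, at 0.15 against 0.26 over all genes.

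Genes with profiles most like those of Rbfox1 and Elavl3 were taken by the mean absolute difference between profiles over the 6 arrays, each centred on its own mean. Nearest to Rbfox1 were Ppargc1a, a coactivator of mitochondrial genes, at 0.045, Dennd5b at 0.055 and Usp29 at 0.068. Ppargc1a had 6.09 in sorted cells, 5.02 on the PV-labelled array, 3.88 in MEF, 5.52 at day 3, 5.05 at day 7 and 4.64 at day 14. Nearest to Elavl3 were Pidd1, a protein of p53-dependent death signalling, at 0.040, Slc43a1, an amino acid transporter, at 0.054 and Tmem88b at 0.055. With 6 arrays and 14295 genes, close matches are easy to find, and these are a description only.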

How the data were processed

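The deposited data are log2 values of 6 arrays, which the authors made with Affymetrix Expression Console, per the submitters' processing notes. Its algorithm, its version and the genome build were not given in the sources used here. The range of the values showed that they are log2. Control probe sets (5333 of 41345) were left out. Symbols came from the platform annotation: 23521 probe sets had 1, 1814 several and 10677 none. A gene took its brightest single-symbol probe set by mean. The floor was the median over probe sets other than controls, differences of log2 values were counted at 2-fold, and genes above this floor on at least 1 array count as measured. Where 1 array is at the floor, the fold is a bound. With 1 array in each group no test was run, and the number of arrays limits the precision. Python 3.11.15, pandas 2.3.3 and numpy 2.4.6 were used. The counting was tested on simulated data with changes placed only in genes well above the floor, so that check does not cover calls near it.

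The members, lists, floor and threshold were chosen with earlier results of these data known. Named genes were all members, up to 4 genes of each list with the largest difference in sorted iPV, day 14 and PV-labelled arrays against MEF, and 3 look-alikes of each member varying by 1 log2 unit; other names were chosen after their values were seen. The alternatives were quantile normalization, housekeeping centring (22 genes), the mean of probe sets, no floor, a floor at percentile 75 (6.58) and a 1.5-fold threshold. Promoters and microRNAs came from RefSeq tables of GRCm38.p6.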

Additional observations from a re-analysis of the deposited data

How the results depend on the processing

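No paired analysis was possible because each group is 1 array, and for the same reason no replicate could be left out. The median difference of the members moved by less than the technical spread in all 45 combinations tried. The medians themselves, from -0.11 to 0.25, are smaller than that spread. A median could thus change sign and still count as unmoved. The count of members past 2-fold moved in 15 of 54. In sorted cells against MEF it was 1 under quantile normalization and 1 after housekeeping centring, both Rbfox1, 0 with a floor at percentile 75 and 4 at 1.5-fold (Ptbp1, Ptbp2, Rbfox1, Elavl3). In sorted cells against day 14 it was 2 after housekeeping centring, 0 with that floor and 3 at 1.5-fold. Against the PV-labelled array it was 0 under quantile normalization, 0 with that floor and 3 at 1.5-fold. With no floor it was 1 at day 3 against MEF, and at 1.5-fold it was 2 at day 3 and 1 at day 7 against MEF, 1 at day 7 against day 3 and 1 at day 14 against day 7. The 1.5-fold member counts stand beside 1391 to 3240 of 14295 genes passing that threshold over the 9 comparisons. The higher floor, 6.58, lies above every value of Rbfox1 and Elavl3, so it removes them by construction. The causes of the other moves were not tested. The mean of probe sets cannot change members with 1 probe set. The median of neuron markers in sorted cells against MEF turned to -0.00459 with the higher floor, under which no parvalbumin neuron marker was measured.

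Counts over all genes ran from 317 to 1178 in the 9 comparisons. They moved by over 1.5 times in 2 after housekeeping centring (1168 against 563 at day 7 and 1283 against 745 at day 14, both against MEF), in 7 with no floor (560 to 1599), in 9 with the higher floor (149 to 640) and in 9 at 1.5-fold (1391 to 3240). Housekeeping centring moved the share of called genes that are higher to 36.0% against 69.1% for sorted cells, 31.3% against 68.8% for the PV-labelled array, 20.5% against 46.7% at day 3, 14.6% against 66.8% at day 7 and 14.0% against 62.6% at day 14, each against MEF. It moved that share to 86.4% against 67.5% for sorted cells against day 14 and to 42.0% against 71.1% at day 7 against day 3. Quantile normalization gave 57.7% for sorted cells against MEF. Members near the floor (Rbfox1, Elavl2, Elavl4) are limited by signal over background.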
